A study of Homo sapiens with 8 samples.

Results

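Histone and arginine methylation enzymes were taken from the deposited table by their symbols, with 1 name pattern that covers the families KDM, KMT, SETD, EZH, JMJD, PRMT, SUV, EHMT, NSD, WHSC1 and DOT1L. The pattern matched 60 of 11530 genes, and 59 of these were among the 11257 genes tested. By known function the 60 genes were 22 writers of lysine methylation on histones, 7 writers of arginine methylation, 16 erasers, 7 other proteins with a SET domain and 4 JmjC hydroxylases. The remaining 4 matched by name only. These were NSDHL, an enzyme of sterol synthesis, the readthrough transcript JMJD7-PLA2G4B, and the antisense RNAs JMJD1C-AS1 and SETD5-AS1. Readthrough and antisense transcripts overlap other genes, and the library kit does not mark the strand, so their reads cannot be told apart from those of their partners.

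The series holds 8 RNA-seq libraries of the human cell line MonoMac 6, which was established from an acute monocytic leukaemia. In 4 libraries the cells had received recombinant human APRIL, a cytokine of the TNF family encoded by TNFSF13, at 100 ng/mL for 24 h. The other 4 were controls without APRIL. The labels place the treated cells in RPMI without serum and give no serum content for the control medium, so APRIL and a change of serum cannot be told apart, and the series text adds unnamed baseline cytokines to the medium of both groups. The line carries a fusion of KMT2A with MLLT3, and a value per gene holds the reads of the fused and the intact allele together. It is 1 cell line, and the labels do not say whether the libraries of a group came from separate cultures, so the p-values refer to the spread among libraries alone, and that spread may be technical. In bulk RNA, fewer cells with a transcript and less of it per cell cannot be told apart.

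Writers transfer a methyl group from S-adenosylmethionine to a lysine or an arginine. Erasers remove it, the KDM1 enzymes with a flavin and the JmjC enzymes with iron and 2-oxoglutarate. Methylation of lysine 4, 36 or 79 of histone H3 marks active genes, and methylation of lysine 9 or 27 of H3, or of lysine 20 of H4, goes with compacted or silent chromatin. In acute myeloid leukaemia several of these enzymes are well known: KMT2A is the target of chromosome breaks, DOT1L is recruited by KMT2A fusion proteins, and KDM1A and PRMT5 have been pursued as drug targets.

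Values are the authors' log2 values, scaled per library by TMM (trimmed mean of M values), and a change is APRIL minus control in log2 units, with the standard error from limma. The per-library headers carry no replicate number, so libraries are called column 1 to 4 of their group, by order in the table. The effective library sizes implied by the scaled values ran from 1150492 reads in APRIL column 3 to 7316116 in APRIL column 2, a 6.36-fold range. They are not read totals. Whole reads recovered from the values, over the genes where this was possible, came to 866383 in APRIL column 3 and 4993949 in APRIL column 2. Limma's quality weights were lowest for APRIL column 3 (0.117) and control column 1 (0.316), called below both libraries where they are left out together. Of 10 monocyte and myeloid marker genes 9 were in the table, with a summed linear value of 1368 to 1771 in APRIL libraries and 1466 to 1528 in control libraries. Of the markers of other lineages, the table held 1 of 5 for T cells and 3 of 4 for B cells, and none of 4 erythroid, 3 epithelial and 3 fibroblast genes.

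To set the enzymes beside each other, whole reads recovered from the values were divided by the length of the longest annotated transcript, which was possible for 57 of the 60 genes. WHSC1, KDM2A and KDM5C had no recovered reads, so all levels, ranks and medians on this scale lack them. On this RPKM scale (reads scaled by transcript length and library depth) PRMT1, the main enzyme of asymmetric arginine dimethylation, was the most abundant of the 57, at 374 ± 79.6 with APRIL and 290 ± 59.4 in controls (SD, n = 4 each). PRMT5, the main enzyme of symmetric arginine dimethylation, followed at 82.4 ± 4.7 with APRIL and 85.4 ± 10.9 in controls. KDM1A, known as LSD1, stood at 60.2 ± 2.1 with APRIL and 62.2 ± 1.4 in controls. In both groups the ranges of mean ± SD of these 3 enzymes did not meet.

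Within the pairs of related enzymes 1 member often prevailed. EZH2, the main catalytic subunit of PRC2 in dividing cells, had a level of 25.3 ± 3.4 with APRIL and 29.02 ± 1.4 in controls, while its relative EZH1 had 2.73 ± 0.58 with APRIL and 2.97 ± 0.19 in controls. The H3K27 eraser KDM6A stood at 5.17 ± 1.56 with APRIL and 6.41 ± 0.84 in controls, and KDM6B, known in macrophages as an inducible enzyme, at 1.81 ± 0.79 with APRIL and 1.82 ± 0.39 in controls. The H3K9 eraser KDM3B had 18.1 ± 3.4 with APRIL and 22.7 ± 1.5 in controls. Its relative KDM3A had 4.01 ± 0.78 with APRIL and 4.61 ± 0.45 in controls. DOT1L, the only H3K79 writer, was among the more abundant lysine writers at 31.8 ± 6.2 with APRIL and 31.2 ± 5.1 in controls. KMT2A stood lower, at 4.25 ± 1.35 with APRIL and 5.64 ± 0.82 in controls. The lowest level was that of KMT2B, a relative of KMT2A, at 0.246 ± 0.148 with APRIL and 0.394 ± 0.155 in controls, which rested on 2 to 17 reads per library. Over the roles, the median level was 20.96 with APRIL and 17.7 in controls for arginine writers, 9.88 with APRIL and 11.1 in controls for lysine writers, and 9.37 with APRIL and 9.76 in controls for erasers.

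Promoters, from 250 bases before to 50 bases after the annotated start, were matched for 55 of the 60 genes in RefSeq (build GRCh38.p14). Both strands were searched for a kB-type motif (GGG, then 5 bases of any kind, then CC), because APRIL's receptors are known to act through NF-kB, and for the E2F-type motifs TTTCCCGC and TTTGGCGC, because EZH2 is a known E2F target. A kB-type match lay in 42 of 55 promoters (76.4%), against 15833 of 27305 promoters in RefSeq (58.0%). An E2F-type match lay in 3 of 55 (5.45%), those of EZH2, KDM1B and WHSC1, against 2.31% of all promoters. Since EZH2 prompted this search, its match is not an independent part of that share. The enzymes' promoters were richer in CG, with a median of 30 CpG in the window against 14 over all promoters and 66.7% GC against 58.3%, and the part of this in the motif counts was not tested. Shown here are 1 promoter of each of the 3 roles, which are those of EZH2 for lysine writers, KDM3B for erasers and PRMT1 for arginine writers, with the matched letters in capitals. That of EZH2 is chr7:148884242-148884541 on the minus strand and holds 1 E2F-type match, that of KDM3B is chr5:138352435-138352734 on the plus strand with 1 kB-type match, and that of PRMT1 is chr19:49677021-49677320 on the plus strand with 1 kB-type match.
EZH2: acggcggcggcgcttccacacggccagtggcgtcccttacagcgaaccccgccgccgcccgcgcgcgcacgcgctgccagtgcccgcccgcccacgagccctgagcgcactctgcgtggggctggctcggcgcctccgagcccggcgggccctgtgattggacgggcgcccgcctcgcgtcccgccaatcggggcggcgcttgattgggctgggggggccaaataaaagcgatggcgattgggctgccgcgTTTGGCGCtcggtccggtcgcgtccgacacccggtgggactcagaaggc
KDM3B: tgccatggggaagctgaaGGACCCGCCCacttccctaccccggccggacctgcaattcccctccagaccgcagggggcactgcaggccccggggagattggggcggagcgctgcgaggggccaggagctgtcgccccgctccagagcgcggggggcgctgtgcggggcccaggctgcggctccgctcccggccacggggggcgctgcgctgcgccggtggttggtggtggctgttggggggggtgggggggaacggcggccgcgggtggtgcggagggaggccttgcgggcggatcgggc
PRMT1: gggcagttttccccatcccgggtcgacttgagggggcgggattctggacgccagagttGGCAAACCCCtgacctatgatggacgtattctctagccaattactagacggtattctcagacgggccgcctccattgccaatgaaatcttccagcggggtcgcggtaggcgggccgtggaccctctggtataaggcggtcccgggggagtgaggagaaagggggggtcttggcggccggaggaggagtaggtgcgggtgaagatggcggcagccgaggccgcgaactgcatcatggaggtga
A match is a string of letters in the reference, and no binding was measured.

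Over all roles no enzyme passed the test between APRIL and control. Limma called 0 of the 59 members at a Benjamini-Hochberg adjusted p under 0.05, where 0% of all tested genes were called and the smallest adjusted p of any gene was 0.400. Voom on the recovered reads also called 0 genes, and limma with library quality weights called 4, none of them a member. By unadjusted p under 0.05 there were 6 members, against 11.9% of all tested genes (1344 of 11257). They were 1 with a higher mean in APRIL libraries, against 6.25% of genes, and 5 with a lower one, against 5.69% of genes. The 5 were SETD2, KDM5B, KDM1B, KDM3B and SETD7, and the 1 was JMJD4, where SETD7 and JMJD4 are named for that count after their values were seen. All 4 APRIL values lay above all 4 control values for 0 members, against 3.62% of genes, and below them for 2 members, KDM3B and SUV420H1, against 4.19% of genes. SUV420H1 is likewise named after its values were seen. A negative change was seen in 39 of 59 members, against 50.7% of genes, with a median change of -0.14 over the members and -0.005 over all genes. Without APRIL column 3 the members' median was -0.05, with 34 of 59 negative, against 5647 of 11257 genes. Without both APRIL column 3 and control column 1 it was -0.06, with 37 of 59 negative, against 5717 of 11257 genes. Leaving out 1 library gave 0 members with an unadjusted p under 0.05 where control column 1 was left out, 2 for control column 2, 2 for APRIL column 3, 3 for APRIL column 4 and 16 for APRIL column 2. The median 95% half-width of a member's change was 0.39, so a change much smaller than that could not be told from 0 at this depth and number of libraries.

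**Figure D1:**
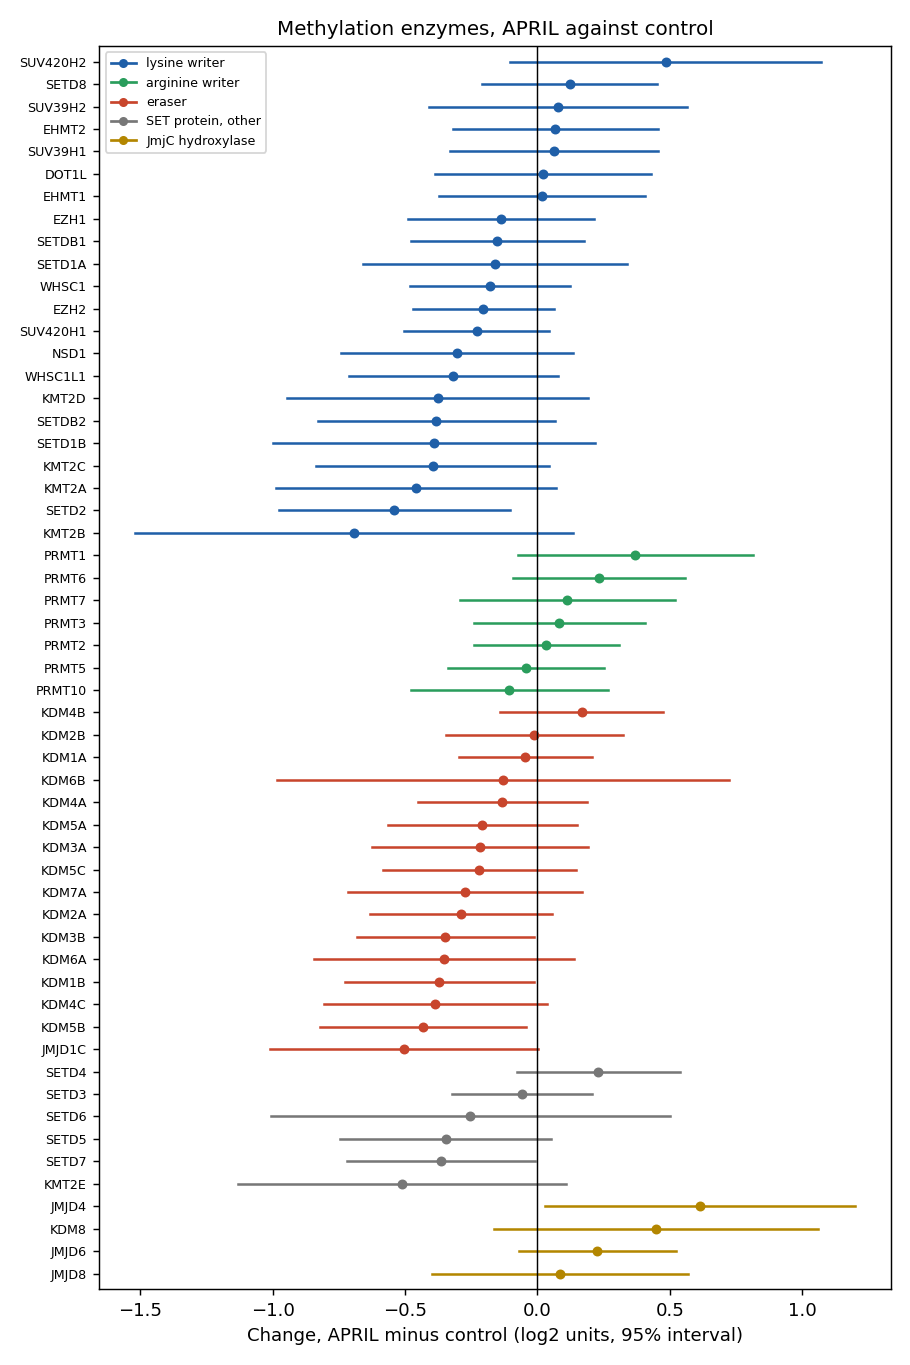
Change of each tested enzyme of the 5 roles (rows, coloured by role) as APRIL minus control in log2 units on the horizontal axis; points are limma estimates and lines their 95% intervals, 4 libraries per group. All 4 JmjC hydroxylases and 5 of 7 arginine writers lie right of 0, and 15 of 16 erasers lie left of it, while most lines cross 0 and no gene passed the adjusted threshold.

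Among the 22 lysine writers 15 had a lower mean in APRIL libraries and 7 a higher one, with a median change of -0.19, and none passed the test. Leaving out APRIL column 3 gave a median of -0.09, and leaving out both libraries one of -0.10. The writers of H3K4 were lower in 6 of 6 genes (median -0.39, range -0.69 for KMT2B to -0.16 for SETD1A), and without APRIL column 3 in 5 of 6 (median -0.21). Those of H3K36 were lower in 4 of 4 (median -0.31), with a median of -0.15 without APRIL column 3 and -0.09 without both libraries. The writers of H3K9 were split, with 4 higher and 2 lower (median 0.04), and without control column 1 there were 5 of 6 lower (median -0.09).

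KMT2A, the H3K4 methyltransferase that is broken in this line, had values of 6.50, 6.79, 5.59 and 6.36 in APRIL libraries, against 6.98, 6.76, 6.86 and 6.47 in control libraries. The groups overlapped, and APRIL column 3 was the lowest of all. Its change was -0.46 ± 0.24 (limma, adjusted p = 0.400), and -0.22 without APRIL column 3. Without both libraries it was -0.15. KMT2C, which methylates H3K4 at enhancers, was at 3.84, 4.14, 3.42 and 3.72 in APRIL libraries, against 4.39, 4.43, 4.003 and 3.87 in control libraries. The change was -0.40 ± 0.20, and -0.20 without both libraries, and APRIL column 2 lay above control columns 3 and 4.

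SETD2, which trimethylates H3K36 in transcribed gene bodies, had the smallest p of all members. It had 5.07, 5.34, 4.52 and 5.005 in APRIL libraries, against 5.82, 5.64, 5.34 and 5.30 in control libraries, and APRIL column 2 reached the level of control columns 3 and 4 while the other APRIL libraries lay below all controls. Its change was -0.54 ± 0.20, a fold of 0.69, with an unadjusted p of 0.0199 and an adjusted p of 0.400 in limma. Without APRIL column 3 the change was -0.39, and without that library and control column 1 it was -0.29. NSD1, a dimethyltransferase of H3K36, had 5.73, 5.89, 4.99 and 5.50 in APRIL libraries, against 6.07, 5.79, 5.80 and 5.66 in control libraries. Its groups overlapped, and its change of -0.30 ± 0.20 became -0.12 without APRIL column 3 and -0.04 without both libraries. WHSC1, also known as NSD2 and close to NSD1 in function, stood at 12.13, 12.19, 11.59 and 12.04 in APRIL libraries, against 12.21, 12.22, 12.15 and 12.09 in control libraries. The change of -0.18 ± 0.14 came largely from 1 library, since it was -0.05 without APRIL column 3.

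For H3K27, EZH2 had 10.34, 10.25, 9.89 and 10.11 in APRIL libraries, against 10.30, 10.30, 10.36 and 10.44 in control libraries. The first APRIL library lay within the control range and the other APRIL libraries below it. The change was -0.20 ± 0.12 (limma, adjusted p = 0.418), and -0.12 without APRIL column 3. EZH1 was at 5.67, 5.95, 5.26 and 5.52 in APRIL libraries, against 5.86, 5.71, 5.75 and 5.64 in control libraries, where the highest and the lowest of all 8 values were both APRIL libraries. Its change was -0.14 ± 0.16, and -0.03 without APRIL column 3, where it rested on 11 reads.

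DOT1L had 5.20, 5.24, 4.74 and 5.45 in APRIL libraries, against 4.85, 5.39, 5.04 and 5.27 in control libraries. The ranges covered each other and the change was 0.02 ± 0.18, with a 95% interval of -0.39 to 0.43. It was 0.16 without APRIL column 3 and -0.07 without control column 1. EHMT2, known as G9a, which dimethylates H3K9, had 8.62, 8.60, 8.21 and 8.67 in APRIL libraries, against 8.0004, 8.68, 8.53 and 8.63 in control libraries. In each group 1 library was low and the other 3 lay close together, and the change was 0.07 ± 0.17. It was 0.17 without APRIL column 3 and -0.09 without control column 1. SUV39H1, which trimethylates H3K9 in constitutive heterochromatin, had 5.15, 5.25, 5.37 and 5.46 in APRIL libraries, against 4.85, 5.66, 5.16 and 5.31 in control libraries, and a change of 0.06 ± 0.18. Its control libraries held both the lowest and the highest value, and without control column 1 the change was -0.07.

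The H4K20 writers did not share a direction. SUV420H2 had 9.41, 9.03, 9.68 and 9.48 in APRIL libraries, against 8.27, 8.59, 9.49 and 9.31 in control libraries. Control columns 1 and 2 were low and the other 6 libraries lay together, and the change was 0.49 ± 0.26 (limma, adjusted p = 0.406). It was 0.27 without control column 1 and 0.18 without both libraries. Its relative SUV420H1, which shares the step from mono- to higher methylation, had 6.54, 6.55, 6.53 and 6.28 in APRIL libraries, against 6.86, 6.57, 6.74 and 6.66 in control libraries. All APRIL values lay below all control values by a narrow gap, and the change was -0.23 ± 0.12 (adjusted p = 0.404). SETD8, which places the first methyl group on H4K20, had 6.49, 6.45, 6.60 and 6.21 in APRIL libraries, against 6.59, 6.07, 6.24 and 6.35 in control libraries. Its change was 0.12 ± 0.15 with overlapping groups. It was 0.07 without APRIL column 3 and 0.22 without control column 1.

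**Figure D2:**
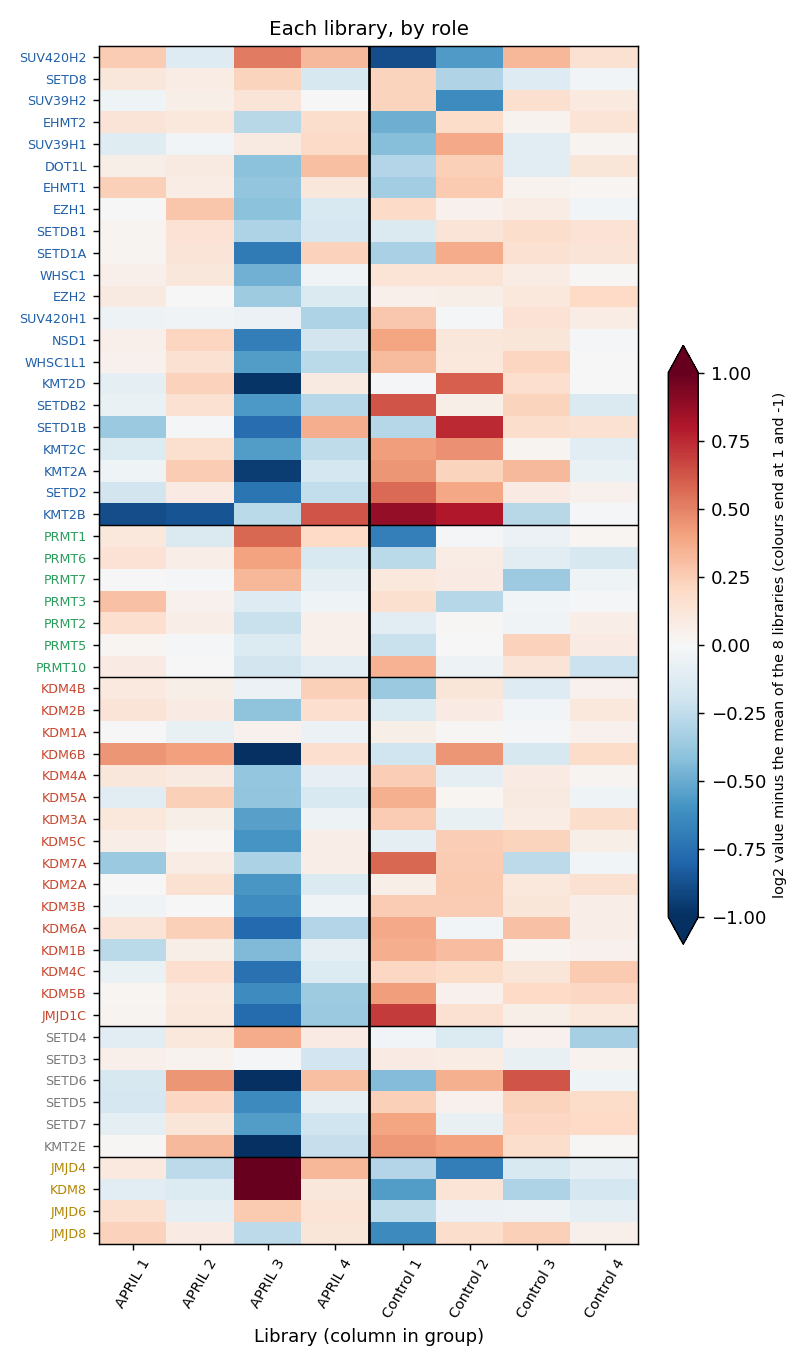
Each enzyme (rows, grouped by role) in each library (columns, APRIL left of control) as the log2 value minus the gene's mean over the 8 libraries, in colour. The column of APRIL 3 is the darkest blue among lysine writers and erasers. Control column 1 is red for many of the same rows. APRIL 3 was the lowest of 8 libraries for 15 of 22 lysine writers and 13 of 16 erasers, against 32.9% of all tested genes. Control column 1 was the highest of 8 for 8 of 22 lysine writers and 9 of 16 erasers, against 26.3% of all tested genes.

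Among the 16 erasers 15 had a lower mean in APRIL libraries, the exception being KDM4B, and the median change was -0.25. None passed the test. With APRIL column 3 left out there were 13 of 16 lower (median -0.13), and without both libraries 12 of 16 (median -0.08). The erasers of H3K4 were lower in 5 of 5 genes (median -0.22, and -0.11 without APRIL column 3). Those assigned to H3K9 alone were lower in 3 of 3 (median -0.35, and -0.20 without APRIL column 3). The pair for H3K27 was lower in 2 of 2 (median -0.24), and without APRIL column 3 in 1 of 2, with a median of the other sign at 0.06. The pair for H3K36 was lower in 2 of 2 (median -0.15), and without APRIL column 3 in 1 of 2 (median -0.01). These counts by mark leave out the erasers that act on 2 marks. Of the KDM4 enzymes, for H3K9 and H3K36, 2 were lower and 1 higher (median -0.13, and -0.03 without APRIL column 3). KDM7A, for H3K9 and H3K27, was lower (-0.27, and -0.22 without APRIL column 3).

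KDM5B, known as JARID1B, which removes methyl groups from H3K4, had 7.21, 7.29, 6.56 and 6.84 in APRIL libraries, against 7.61, 7.23, 7.39 and 7.39 in control libraries. The first 2 APRIL libraries lay near the lowest control and the others well below it. The change was -0.43 ± 0.17, a fold of 0.74 (limma, unadjusted p = 0.0331, adjusted p = 0.400), and -0.23 without both libraries. Its relative KDM5A had 6.10, 6.44, 5.81 and 6.05 in APRIL libraries, against 6.56, 6.22, 6.30 and 6.16 in control libraries. The groups overlapped, and the change was -0.21 ± 0.16. It was -0.11 without APRIL column 3 and -0.03 without both libraries.

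The flavin-dependent pair KDM1A and KDM1B differed in size of change. KDM1A had 4.94, 4.87, 4.98 and 4.89 in APRIL libraries, against 5.001, 4.95, 4.93 and 4.99 in control libraries. These were the least variable values of any named enzyme, and its change of -0.05 ± 0.11 had a 95% interval of -0.30 to 0.21. KDM1B, or LSD2, had 3.61, 3.94, 3.44 and 3.79 in APRIL libraries, against 4.24, 4.19, 3.91 and 3.93 in control libraries. APRIL column 2 reached just above control columns 3 and 4, and the change was -0.37 ± 0.16 (limma, unadjusted p = 0.0427, adjusted p = 0.400), and -0.23 without both libraries. Within a library, the log2 ratio of KDM1A to KDM1B in deposited values was 1.33, 0.93, 1.55 and 1.101 with APRIL, against 0.76, 0.77, 1.02 and 1.06 in controls. This ratio is read between libraries only, since the values are not per length, and its groups overlapped.

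Of the KDM3 family, which acts on H3K9, KDM3B was the eraser whose groups did not overlap. It had 10.41, 10.45, 9.83 and 10.42 in APRIL libraries, against 10.71, 10.71, 10.57 and 10.51 in control libraries. APRIL columns 1, 2 and 4 lay within a narrow range just under the controls, and APRIL column 3 lay far lower. The change was -0.35 ± 0.15, a fold of 0.79 (limma, unadjusted p = 0.0433, adjusted p = 0.400), and -0.20 without APRIL column 3. JMJD1C, a relative whose own demethylase activity is debated and on which leukaemia cells with KMT2A fusions have been found to depend, had 3.78, 3.86, 2.98 and 3.38 in APRIL libraries, against 4.45, 3.90, 3.81 and 3.86 in control libraries. The change of -0.51 ± 0.23 was the most negative among erasers (limma, adjusted p = 0.400), and it was -0.19 without APRIL column 3 and control column 1, which hold the lowest and the highest value. Its antisense RNA JMJD1C-AS1 had a change of 0.12 ± 0.37.

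The KDM4 enzymes act on H3K9 and H3K36. KDM4C had 4.45, 4.69, 3.78 and 4.38 in APRIL libraries, against 4.73, 4.70, 4.64 and 4.78 in control libraries. APRIL column 2 lay among the controls and the others below them, and the change was -0.39 ± 0.19, or -0.20 with APRIL column 3 left out. KDM4B had 7.57, 7.53, 7.41 and 7.71 in APRIL libraries, against 7.10, 7.59, 7.35 and 7.51 in control libraries. The groups overlapped, with control column 1 lowest, and the change was 0.17 ± 0.14. Without control column 1 it was 0.07.

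KDM6A, an H3K27 demethylase encoded on the X chromosome, had 5.93, 6.04, 5.02 and 5.51 in APRIL libraries, against 6.17, 5.77, 6.09 and 5.87 in control libraries. The first 2 APRIL libraries lay within the control range, and the change was -0.35 ± 0.22. It was -0.15 without APRIL column 3 and -0.08 without both libraries. KDM6B had 0.38, 0.35, -1.35 and 0.11 in APRIL libraries, against -0.26, 0.38, -0.22 and 0.12 in control libraries. APRIL column 3 stood apart and rested on 5 reads, and the change of -0.13 ± 0.38 was 0.28 without it. KDM2B, an H3K36 demethylase that binds unmethylated CpG, had 7.20, 7.16, 6.67 and 7.24 in APRIL libraries, against 6.94, 7.16, 7.04 and 7.18 in control libraries. Its change was -0.01 ± 0.15, and 0.12 without APRIL column 3.

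**Figure D3:**
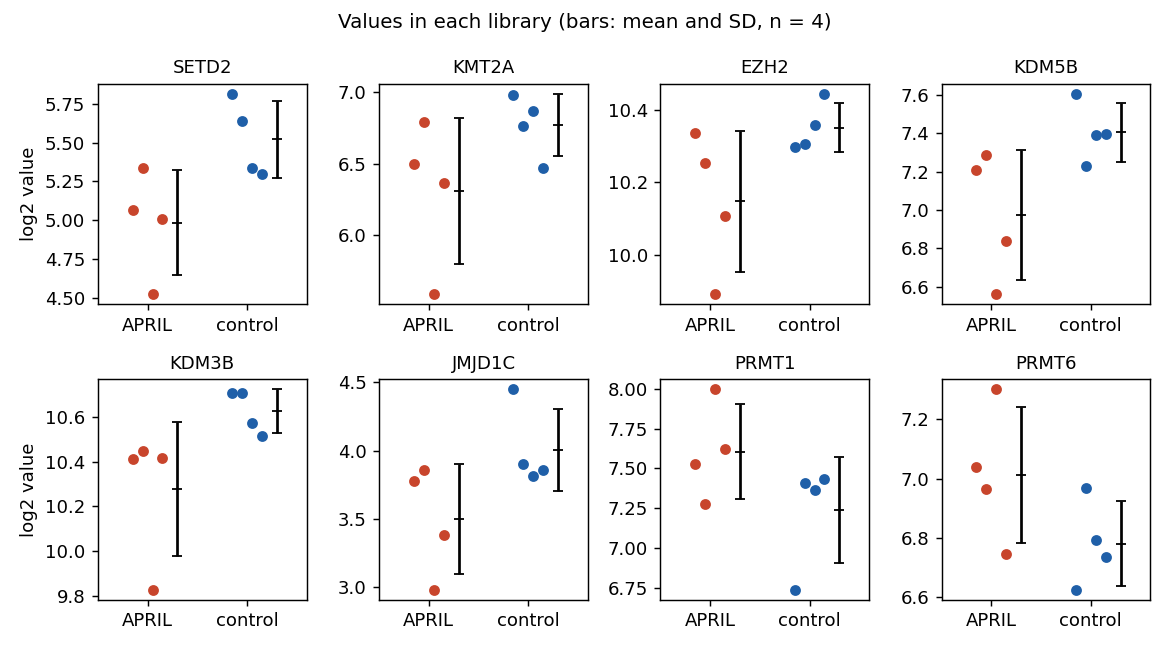
Log2 values of 8 named enzymes in each library (points; APRIL left, control right; vertical axes differ between panels and do not start at 0), with the mean and SD of the 4 libraries as bars. KDM3B shows no overlap between groups, the other 7 enzymes overlap or meet, and 1 APRIL library is far below the rest in SETD2, KMT2A and KDM3B.

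The 7 arginine writers had the opposite balance, with 5 higher and 2 lower in APRIL libraries and a median change of 0.08. With APRIL column 1 left out the median was -0.002. Leaving out a control library gave 0.15 for column 1, 0.04 for column 2 and 0.03 for column 3. None passed the test, and 0 had an unadjusted p under 0.05. PRMT1 had 7.53, 7.28, 7.997 and 7.62 in APRIL libraries, against 6.74, 7.41, 7.36 and 7.44 in control libraries. Control column 1 was low and APRIL column 3 high, and the change was 0.37 ± 0.20, a fold of 1.29 (limma, adjusted p = 0.404). Without those libraries it was 0.07.

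PRMT6, which methylates arginine 2 of H3, had 7.04, 6.97, 7.302 and 6.74 in APRIL libraries, against 6.62, 6.97, 6.79 and 6.73 in control libraries. The groups overlapped and the change was 0.23 ± 0.15. It was 0.14 without APRIL column 3. PRMT7, the enzyme limited to monomethylation, had 1.89, 1.86, 2.21 and 1.78 in APRIL libraries, against 1.98, 1.96, 1.51 and 1.84 in control libraries, and a change of 0.11 ± 0.18. Its groups covered each other apart from 1 high APRIL and 1 low control library, and with APRIL column 3 left out the change was 0.02.

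PRMT5 had 6.15, 6.11, 5.99 and 6.18 in APRIL libraries, against 5.91, 6.12, 6.36 and 6.21 in control libraries. The APRIL values lay inside the control range, with a change of -0.04 ± 0.13 and a 95% interval of -0.34 to 0.25. It was -0.005 without APRIL column 3 and -0.12 without control column 1. PRMT10, now called PRMT9, a symmetric methyltransferase of the splicing factor SF3B2, had 2.85, 2.76, 2.58 and 2.66 in APRIL libraries, against 3.11, 2.72, 2.89 and 2.55 in control libraries. Its change was -0.11 ± 0.17, also with the APRIL values inside the control range, and 0.03 without both libraries. In APRIL column 3 it rested on 11 reads. The other 2 arginine writers, PRMT2 and PRMT3, had changes of 0.03 ± 0.12 and 0.08 ± 0.14.

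Writers and erasers were then set side by side within each library, as the mean deviation of a role from its average over the 8 libraries. For erasers it was 0.02, 0.11, -0.53 and -0.07 in APRIL libraries, against 0.19, 0.14, 0.05 and 0.09 in control libraries. For lysine writers it was -0.04, 0.06, -0.39 and 0.002 in APRIL libraries, against 0.07, 0.17, 0.09 and 0.04 in control libraries. In both roles APRIL column 3 was by far the lowest, and APRIL column 2 lay within the control range. For arginine writers it was 0.12, -0.001, 0.09 and -0.01 in APRIL libraries, against -0.10, -0.03, -0.03 and -0.04 in control libraries. Every control value lay below every APRIL value. Over all tested genes it was -0.0002, 0.003, 0.02 and 0.008 in APRIL libraries, against -0.02, -0.005, -0.007 and -0.002 in control libraries. There too every control value lay below every APRIL value, so this order was not particular to arginine writers. No p is given for the means of the roles, since their genes were chosen with results known.

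Erasers minus lysine writers came to 0.06, 0.05, -0.14 and -0.07 in APRIL libraries, against 0.12, -0.04, -0.04 and 0.05 in control libraries, with means of -0.02 ± 0.10 with APRIL and 0.02 ± 0.08 in controls (SD, n = 4 each). The groups overlapped, so erasers and lysine writers differed by less than the spread between libraries. Erasers minus arginine writers came to -0.10, 0.11, -0.62 and -0.05 in APRIL libraries, against 0.29, 0.16, 0.08 and 0.13 in control libraries, with means of -0.17 ± 0.32 with APRIL and 0.17 ± 0.09 in controls. Here 1 APRIL library lay among the controls and 3 below them.

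**Figure D4:**
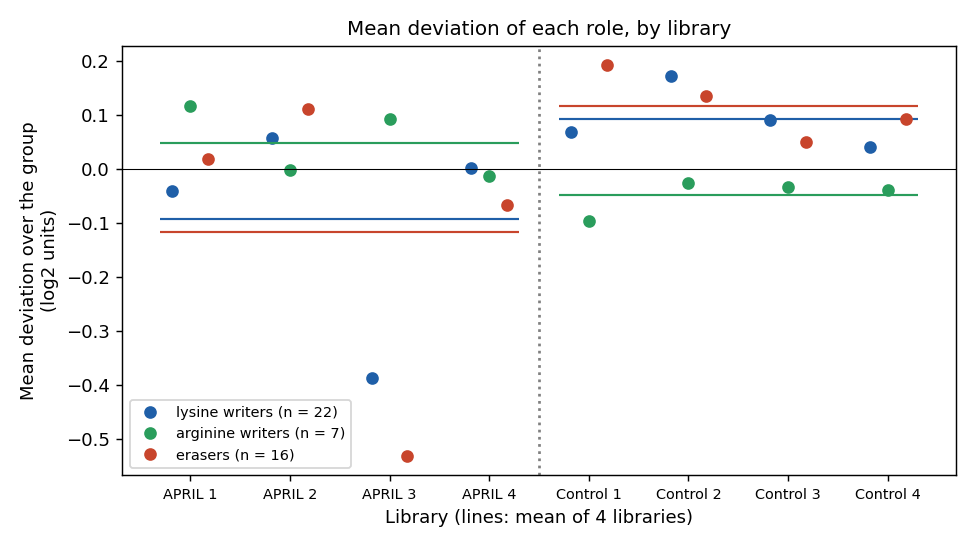
Mean deviation of 22 lysine writers, 7 arginine writers and 16 erasers in each library (points; vertical axis in log2 units, APRIL libraries left of control libraries), with lines at the mean of the 4 libraries of a group. APRIL 3 is at -0.39 for lysine writers and -0.53 for erasers, and no other library is below -0.10 for any of the 3 roles.

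The direction of change moved with transcript length in all genes. Spearman's rho between the change and the longest annotated transcript was -0.54 over 10808 genes and -0.71 over the 59 members, across genes that share the same 8 libraries and are not independent replicates. The median length was 6943.5 bases for lysine writers and 6694.5 bases for erasers, against 3528 bases for arginine writers and 3630 bases for all tested genes. Among genes of 5000 bases or more, a negative change was seen in 12 of 14 lysine writers and 11 of 12 erasers, against 78.1% of 3142 genes. Their median changes were -0.35 and -0.25, against -0.20 for all genes of that length. Under 5000 bases it was seen in 3 of 8 lysine writers, 4 of 4 erasers and 2 of 7 arginine writers, against 39.5% of 7666 genes.

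With each library's trend with length and GC content removed, the median change was -0.16 for erasers (11 of 16 negative). It was -0.08 for lysine writers (16 of 22 negative) and 0.05 for arginine writers (1 of 7 negative). Over all genes it was -0.02, with 5747 of 10808 negative. Without APRIL column 3, and with no trend removed, the medians were -0.13, -0.09 and 0.11, with 13 of 16, 14 of 22 and 2 of 7 negative. Over all genes 5647 of 11257 were then negative. APRIL column 3 was the lowest of all 8 libraries for 13 of 16 erasers and 15 of 22 lysine writers, and for 1 of 7 arginine writers, against 32.9% of all tested genes. Without APRIL column 3, rho with length was -0.37 over all genes and -0.57 over the members. The part of length, depth and this library in the changes of the enzymes was not tested further.

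**Figure D5:**
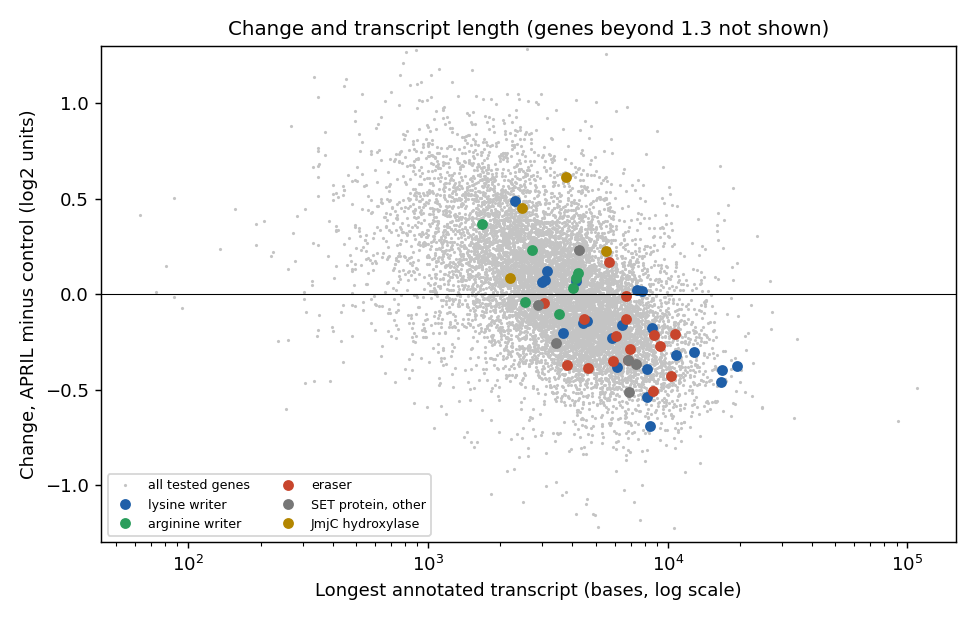
Change (APRIL minus control, log2 units) against the longest annotated transcript (bases, log axis) for all tested genes (grey) and the enzymes by role (colours); genes beyond 1.3 log2 units are not shown. Grey points and enzymes slope down together from short to long transcripts, the arginine writers sitting at the short end and most erasers and lysine writers beyond 5000 bases.

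The other SET proteins and the JmjC hydroxylases completed the name pattern. Of 6 tested SET proteins 5 had a lower mean with APRIL (median -0.30), which became 4 of 6 without APRIL column 3 (median -0.13). SETD9 was not tested, because its deposited values missed the floor of the test. Those values are not per length, and on the RPKM scale the tested KMT2B was lower than SETD9. SETD7, which methylates H3K4 in vitro and several other proteins, had 9.99, 10.21, 9.53 and 9.89 in APRIL libraries, against 10.48, 10.02, 10.29 and 10.29 in control libraries. APRIL column 2 lay above the lowest control, and the change was -0.37 ± 0.16 (limma, unadjusted p = 0.0451, adjusted p = 0.400), and -0.24 without APRIL column 3. The JmjC hydroxylases JMJD4, JMJD6, JMJD8 and KDM8, which are not established as histone demethylases, had a higher mean in 4 of 4 genes, with a median of 0.34. JMJD4, which hydroxylates the translation release factor eRF1, had 5.44, 5.08, 6.40 and 5.68 in APRIL libraries, against 5.05, 4.65, 5.19 and 5.25 in control libraries. Its change of 0.61 ± 0.26 was the highest of all members (limma, unadjusted p = 0.0411, adjusted p = 0.400). APRIL column 3 was high in JMJD4, on 46 reads, and in KDM8, on 15 reads. Without it the change of JMJD4 was 0.36 and the median of the 4 was 0.18. Without both libraries the median of the 4 was 0.098, with 1 of 4 lower. It was 0.28, also with 1 of 4 lower, once length and GC trends were removed. The median length of the 4 was 3105.5 bases and their median GC content 59.1%.

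Partners of these enzymes were read out in the same fit, and none of them passed the adjusted threshold in limma. Partners with an unadjusted p under 0.05, or whose groups did not overlap, are named after their values were seen, and MLLT3 is named as the fusion partner of this line. Over all tested genes 3.62% lay wholly above and 4.19% wholly below the controls.

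Of 9 PRC2 partners 6 were lower and 3 higher, with a median of -0.20 that was -0.08 without APRIL column 3. The complex subunits SUZ12 (-0.27 ± 0.13), AEBP2 (-0.25 ± 0.13) and MTF2 (-0.35 ± 0.15) had every APRIL value below every control value, which is 3 of 9 partners. Of 13 partners of the H3K4 writers 8 were lower and 5 higher, with a median of -0.10 that was -0.03 without APRIL column 3. PSIP1, which tethers KMT2A to chromatin, had -0.55 ± 0.21 and was the 1 partner of these 13 that lay wholly below the controls, with -0.37 if APRIL column 3 is left out. PAGR1, a subunit of the KMT2C and KMT2D complexes, had 0.80 ± 0.28 with overlapping groups, and 0.50 if APRIL column 3 is left out. Of 7 DOT1L partners and KMT2A fusion partners 7 were lower (median -0.13), and without APRIL column 3 there were 5 of 7 (median -0.01). MLLT3 had -0.09 ± 0.22, and AFF4 and AFF1, of the super elongation complex, had -0.43 ± 0.17 and -0.36 ± 0.16 with overlapping groups.

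Of 10 partners in H3K9 heterochromatin 7 were lower and 3 higher, with a median of -0.27 that was -0.11 without APRIL column 3. CBX5, which encodes HP1 alpha (-0.42 ± 0.16), ZNF644, a partner of the EHMT enzymes (-0.43 ± 0.17), and MPHOSPH8 of the HUSH complex (-0.35 ± 0.20) lay wholly below the controls, which is 3 of 10 partners. MPHOSPH8 had -0.15 without APRIL column 3. FAM208A, also of the HUSH complex, had -0.36 ± 0.15 and TRIM28, the corepressor that recruits SETDB1, had 0.29 ± 0.13, both with overlapping groups. Of 9 LSD1 partners 6 were lower and 3 higher (median -0.05), and without both libraries 3 were lower (median 0.04). ZMYM2 had -0.45 ± 0.17 and was the 1 LSD1 partner that lay wholly below the controls. Of 4 partners of PRMT5 3 were higher and 1 lower, with a median of 0.22 that was 0.04 without APRIL column 3.

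Of 16 genes that supply or recycle S-adenosylmethionine and 2-oxoglutarate 6 were higher and 10 lower (median -0.06, and -0.03 without APRIL column 3), with 1 wholly above and 1 wholly below the controls. The 1 above was AHCY, which clears the methyltransferase product S-adenosylhomocysteine, with 4.52, 4.40, 5.23 and 4.66 in APRIL libraries, against 4.02, 4.33, 4.35 and 4.32 in control libraries. Its change was 0.45 ± 0.19 (limma, adjusted p = 0.400), and 0.28 without APRIL column 3. The 1 below was MTAP, which recycles methylthioadenosine, with 5.11, 5.101, 5.19 and 5.14 in APRIL libraries, against 5.597, 5.25, 5.198 and 5.29 in control libraries, and a change of -0.20 ± 0.13. MTR, the methionine synthase, had -0.43 ± 0.19 with overlapping groups, and -0.26 without APRIL column 3. Of 10 further methylation enzymes whose names the pattern does not match 4 were higher and 6 lower (median -0.10, and -0.06 without APRIL column 3). SMYD5 (0.25 ± 0.16) lay wholly above and SMYD2 (-0.34 ± 0.17) wholly below the controls.

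In pairs of related enzymes, 3 of 18 had changes of opposite sign, which were SUV420H1 and SUV420H2, KDM4A and KDM4B, and PRMT5 and PRMT7. The log2 ratio of SUV420H1 to SUV420H2 in deposited values was -2.87, -2.48, -3.15 and -3.20 in APRIL libraries, against -1.41, -2.02, -2.76 and -2.65 in control libraries. It overlapped between groups, and control columns 1 and 2 were the highest. The ratio of EZH1 to EZH2 averaged -4.54 ± 0.16 with APRIL and -4.61 ± 0.15 in controls (SD, n = 4 each), a difference within the spread.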

How the data were processed

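The analysis started from 1 table of 11530 genes with values for 8 MonoMac 6 RNA-seq libraries. Per the file headers, the authors scaled each library by a TMM factor, and the deposited values, which span -4.96 to 15.4, are on a log2 scale. Columns with the authors' deposited p-value, linear fold (ratio), log10 of the p-value, sign of the fold and signed score were not used. Per the submitters' processing notes, bcl2fastq, TopHat2 2.0.13 and build hg19 served upstream. The name of the read counter or annotation was not given in the sources used here. Per the labels, RNA came from a column kit and libraries from the Illumina TruSeq RNA v2 kit.

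Columns were mapped to groups by their headers, 4 APRIL and 4 control. A gene was tested where its linear value reached 1 (log2 of 0) in at least 4 libraries, which left out 273. The test was limma 3.58.1 in R 4.3.3 with intensity trend and robust empirical Bayes, two-sided, with Benjamini-Hochberg adjustment over 11257 genes at 0.05. The fit was tested on simulated data. Whole reads were recovered for 11061 genes (95.9%), and for 1 of 500 genes once the library constants were moved, at a chance limit of 0.001. Recovery required that all 8 values equal the log2 of whole reads plus an offset, over 1 whole divisor. Those divisors are not gene lengths, so levels were compared between genes only after division by the longest GENCODE transcript. Dates had replaced 11 gene symbols. Summaries and plots were made with matplotlib 3.10.9, scipy 1.17.1, pandas 2.3.3 and numpy 2.4.6 in Python 3.11.15.

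The members and gene lists were chosen with earlier results of these data known. Named genes are a fixed list of well-known members plus, per role (lysine writer, arginine writer, eraser), the 3 with the smallest p in each direction. Others are named as range ends, as relatives, as the rest of a role or after their values were seen. Not all of these are marked where they stand, and KMT2B is named for its lowest level and lowest change. The 17 alternatives covered the filter, scaling, empirical Bayes, library weights, voom on recovered reads, length and GC trends, and libraries left out. No set test was run.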

Additional observations from a re-analysis of the deposited data

Results flagged for a closer look

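In 10 of 118 groups of 4 libraries, checked over the 59 tested members, 1 library stood apart from the other 3, with a gap to its nearest neighbour that took more of the group's range than Dixon's 95% critical value allows. Chance gives about 1 in 20 groups where groups are independent. These groups share the same libraries, and the rate over all tested genes was not worked out. The count is therefore not read as a trait of the members. APRIL column 3, the shallowest library, was the one that stood apart in 5 of the 10. Its log2 value was 8.21 for EHMT2, 6.67 for KDM2B, 9.83 for KDM3B, 10.1 for KDM5C and -1.35 for KDM6B, each below the other APRIL libraries. Control column 1 stood apart in 3, with JMJD1C at 4.45, above the other controls, and PRMT1 at 6.74 and SETDB1 at 4.65, below them. The remaining cases were SUV39H2 at 0.70 in control column 2 and SUV420H1 at 6.28 in APRIL column 4, each the lowest of its group. KDM5C, SETDB1, SUV39H2 and SUV420H1 are named here only because a library stood apart. The part of depth or RNA quality in these values was not tested.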

How the results depend on the processing

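No paired analysis was possible because the columns carry no replicate number. Limma called 0 genes and 0 members under every alternative except library quality weights, which called 4 genes and no member. The number of members at an unadjusted p under 0.05 (6) ran from 0 to 16 when 1 library was left out, and was 1 without APRIL column 3 and control column 1. The number over all genes (1344) ran from 507 to 2247 with 1 library left out. The median change of arginine writers (0.08) ran from -0.0021 to 0.15 with 1 library left out, that of lysine writers (-0.19) from -0.25 to -0.09 and that of erasers (-0.25) from -0.33 to -0.13. Among the 28 named genes the sign held in every alternative fitted for 18. With 1 library left out, DOT1L ran from -0.077 to 0.16, EHMT2 from -0.085 to 0.17, SUV39H1 from -0.067 to 0.20, KDM2B from -0.070 to 0.12, KDM6B from -0.30 to 0.28 and PRMT5 from -0.12 to 0.026. With length and GC trends removed, WHSC1 was 0.038, EHMT2 -0.071, SUV39H1 -0.11, KDM2B 0.021, KDM5A 0.073 and PRMT10 0.00035. With quality weights, SUV39H1 was -0.091, KDM2B 0.074, KDM6B 0.27 and PRMT10 0.076. Voom gave 0.015 for KDM2B and 0.11 for KDM6B, and quantile normalization 0.00040 for KDM6B. Without APRIL column 3 and control column 1, EZH1 was 0.014, SUV39H1 -0.087, KDM2B 0.073, KDM6B 0.19 and PRMT10 0.035. The cause was not tested. Depth limits all members that held few reads in the shallow libraries. In APRIL column 3 KMT2B and SETD9 held 2 reads each, SETD6 3 and KDM6B 5. There KDM7A held 8 reads, EZH1 and PRMT10 11 each, SETDB2 14 and KDM8 15, and the list is not complete.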
